A study of Mus musculus with 2 samples.

Results

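The genes described here encode the constitutive proteasome, its regulatory caps and the chaperones that assemble it. They were chosen by name: every gene with a protein-coding transcript whose symbol begins with Psma to Psmg followed by a digit, without the interferon-inducible Psmb8, Psmb9, Psmb10, Psme1 and Psme2. The rule gave 45 of the 55536 genes in the tables, and used no measured value. Of these, 31 are subunits of the core and regulatory particles, 3 are alternative caps or the inhibitor PI31, 7 are assembly chaperones and 2 are tissue-restricted subunits (Psma8 and Psmb11). The remaining 2, Psme2b and Psmc3ip, carry matching symbols but are not constitutive subunits.

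RNA came from the nuclear fraction of primary bone-marrow-derived macrophages of C57BL/6J mice and was sequenced after depletion of ribosomal RNA. All cells had one history: Lipid A at 100 ng/ml for 12 h, a washout of 12 h, and a second dose at 100 ng/ml for 10 min. TLR4, the receptor for bacterial lipopolysaccharide, recognises Lipid A. The 2 libraries are biological replicates of this single condition. The labels also call the fraction nucleoplasmic, and state no age or sex of the mice. The libraries started from 1 µg (replicate 1) and 500 ng (replicate 2) of nucleic acid, and share a donor identifier, so the spread between them may be partly technical. No untreated cells, other times or cytoplasmic fractions were used here, and the values below are levels in these cells, not responses to Lipid A. With 2 libraries the smallest exact two-sided p is 0.5, and none is given.

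The proteasome is the protease that degrades ubiquitin-tagged proteins. Its barrel-shaped core particle is built of outer alpha rings, which gate the entrance, and inner beta rings, which hold the catalytic sites. A regulatory particle, made of a base with a ring of ATPases and a lid that removes ubiquitin, recognises substrates and feeds them into the barrel. Immune signals add inducible catalytic subunits that replace the constitutive ones and change the peptides made for presentation on class I molecules. Macrophages are known for carrying both forms, and proteasomes act in the nucleus as well as in the cytoplasm, but what was measured here is RNA, not protein.

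Library totals were 24444219 and 18051097 expected counts on genes in replicates 1 and 2, of which these 45 genes took 0.134% and 0.137%. An expected count is an estimated number of reads per gene that need not be whole. All 10 macrophage markers were detected, with a summed level of 2686 and 2534 TPM, which is a transcript abundance scaled for length and depth. In such bulk samples fewer cells of a type and less RNA per cell cannot be told apart. No marker of B and plasma cells, T and NK cells, neutrophils, erythroid cells, fibroblasts or dendritic cells was detected; their summed levels were at most 0.900 TPM per list in either library. The defining Cd79a, Cd3g, Cd8a, Ly6g, Elane, Hbb-bs and Hba-a1 were listed at 0 in both.

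In these nuclei, 42 of the 45 genes were detected, which means that both libraries reached 1 TPM and 10 expected counts. Of all 22028 protein-coding genes, 42.9% were. The detected members had a median level of 13.8 TPM, against 7.99 TPM for detected protein-coding genes, and 32 of the 42 lay above that median. Every one of the 31 core and regulatory subunits was present, between 5.08 and 37.4 TPM on average. The assembly chaperones were the low group, with no value above 5.42 TPM in either library.

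**Figure D1:**
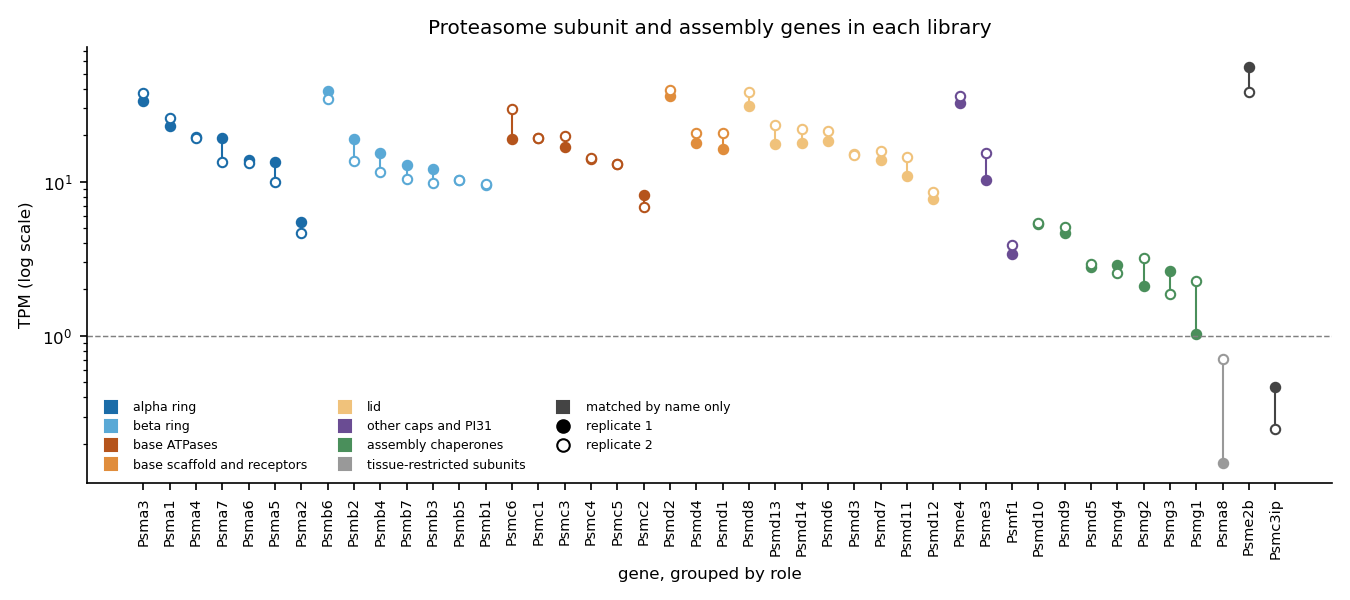
Level of each gene in TPM (vertical, log scale) in replicate 1 (filled) and replicate 2 (open), grouped and coloured by role and ordered by mean level. The dashed line is the detection level of 1 TPM; Psmb11, at 0 TPM in both libraries, is not drawn, and the 7 assembly chaperones lie below all core and regulatory subunits except Psma2.

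The 7 alpha ring genes, Psma1 to Psma7, lay at a median of 16.4 ± 4.07 TPM (the error is the SD of both library medians, n = 2). The highest was Psma3 at 33.5 and 37.5 TPM in replicates 1 and 2. The lowest was Psma2 at 5.49 and 4.66 TPM. These rings are built of 1 copy of each subunit. Over all annotated transcripts, the highest and lowest genes lay about 7-fold apart on this scale. The gap between Psma3 and Psma2 was smaller in both libraries in a second deposited quantification. Protein-coding transcripts held on average 24.6% of the level of Psma3, but all of that of Psma2. The 7-fold gap is therefore no measure of an imbalance between subunits.

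Psma2 was low per length rather than in reads. It had 514 and 298 counts, no fewer than Psma6 with 416 and 246, which reached 13.7 and 13.2 TPM. Of the level of Psma2, 78.5% and 75.3% was placed on an annotated transcript of 2911 bases, and the rest on one of 1353 bases. Psma2 also overlaps AW209491 on the same strand, with 133 and 81 counts. The second deposited quantification split the reads otherwise, with 412 and 479 counts on the shorter transcript against 53.4 and 36.1 in the first. What part the assignment has in the low TPM was not tested.

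The 7 beta ring genes had a median of 11.7 ± 1.74 TPM (SD, n = 2). Psmb6 was the highest at 38.7 and 34.1 TPM, and Psmb1 the lowest at 9.56 and 9.61. The medians of the alpha and beta rings differed by less than the sum of their SDs. Without Psmb6, the other 6 genes lay within 9.59 to 16.2 TPM on average.

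In the regulatory particle, the 6 ATPase genes Psmc1 to Psmc6, whose products unfold substrates, had a median of 16.2 ± 1.04 TPM. Psmc6 was highest on average with 18.8 and 29.4 TPM, the widest gap between libraries in this group, though Psmc1 at 19.1 TPM stood above it in replicate 1. The rank of Psmc6 is over all its forms. Its protein-coding transcript had 8.53 and 10.3 TPM, below the 15.8 and 16.5 TPM of that of Psmc1. Psmc2 was lowest with 8.14 and 6.85. The other 4 ATPase genes stayed between 13.0 and 19.2 TPM on average.

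The scaffold and receptor genes of the base had a median of 19.2 ± 2.04 TPM over 3 genes. Psmd2, the scaffold that binds shuttle factors, reached 35.7 and 39.1 TPM. Psmd1, the other scaffold, had 16.4 and 20.8 TPM, and the ubiquitin receptor Psmd4 had 17.9 and 20.6. Psmd2 was above both in each library, with no overlap.

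The 8 lid genes had a median of 17.4 ± 1.57 TPM. Psmd8 was the highest at 30.9 and 38.0 TPM and Psmd12 the lowest at 7.73 and 8.55. Psmd14, which encodes the lid's deubiquitinase, had 17.9 and 21.9 TPM. The 6 genes between the extremes were within 12.6 to 20.4 TPM on average.

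Among the alternative caps, Psme4, which encodes the large activator PA200, had 32.3 and 35.9 TPM. Its 4452 and 3820 counts were the most of any member. Psme3, the PA28-gamma activator known from the nucleus, had 10.3 and 15.3 TPM. The gene of the inhibitor PI31, Psmf1, was lower at 3.38 and 3.89 TPM.

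The 7 chaperones help the rings and the base to form and are not kept in the finished particle. Their median was 2.74 TPM, with an SD of 0.0849 between library medians (n = 2). Psmd10, the base chaperone also called gankyrin, was highest at 5.32 and 5.42 TPM. Psmg1, which starts the alpha ring together with Psmg2, was lowest on average at 1.03 and 2.26 TPM on 29 and 44 counts, though Psmg3 at 1.86 TPM was below it in replicate 2. Psmg4 also rested on few reads, 32 and 19 counts.

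The remaining 3 members were not detected. Psma8, an alpha subunit of testis, had 10 and 18 counts and 0.15 and 0.71 TPM. Psmc3ip, whose product acts in meiotic recombination, had 17.5 and 6.32 counts and 0.470 and 0.250 TPM. Psmb11, the beta subunit of thymic epithelium, had 0 counts in both gene tables, and a count of 0 allows up to 3 counts, or a CPM of 0.123 and 0.166. The second quantification placed 175 and 171 counts on its transcript of 4247 bases, at 0.346 and 0.557 TPM, so the tables do not settle its reads, and both put it below detection.

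The member with the highest mean TPM, Psme2b, is not a constitutive subunit. It is a single-exon gene at chr11:48945354-48946190 (mm10, minus strand), annotated as protein-coding, whose sequence is nearly that of Psme2, the PA28-beta activator on chromosome 14. Over 794 aligned bases, its transcript and the most similar transcript of Psme2 had 5 mismatches and no gap (99.4% identity), and all 5 lay in the coding sequence. A stretch with 3 of the 5 is shown to make plain how few bases tell the aligned parts of both genes apart. Capitals mark the differing bases. The first sequence covers bases 556 to 615 of its transcript and the second bases 682 to 741 of its own.
Psme2b: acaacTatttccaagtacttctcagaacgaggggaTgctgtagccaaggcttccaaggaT
Psme2: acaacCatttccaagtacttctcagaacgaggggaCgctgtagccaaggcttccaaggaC

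Of all 31-base windows of Psme2b, 78.4% also occur in another gene. The share of reads that this leaves without a unique place was not measured. The first quantification gave Psme2b 1365 and 647 counts (55.4 and 37.8 TPM, in replicate 2 below Psmd2 and Psmd8) and Psme2 2084 and 1041. The second gave Psme2b 2520 and 1831 counts and Psme2 1726 and 1118, which turns their order. Psme2b also lies within Gm12185 and touches 9930111J21Rik1 on the same strand, and these had 6828 and 3735 (9930111J21Rik1) and 1020 and 430 (Gm12185) counts. How much of its level comes from these genes was not tested, and its level is uncertain. Without the 4 tissue-restricted and name-only members, a choice made after seeing the data, 41 of 41 genes were detected.

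The constitutive catalytic subunits are the members with a direct inducible counterpart. Psmb5 (chymotrypsin-like activity) had 10.3 TPM in both libraries, while its counterpart Psmb8 had 49.1 and 26.8. Psmb8 was therefore 4.77-fold and 2.61-fold higher. Psmb7 (trypsin-like) had 12.9 and 10.4 TPM, and its counterpart Psmb10 had 76.8 and 42.7, which was 5.96-fold and 4.10-fold higher. Over all annotated transcripts, the inducible gene of both pairs was above the constitutive one in each library, with no overlap. The genes also differed in mean effective length, the length over which a read can start. It was 460 bases for Psmb10 against 1319 for Psmb7, and 1017 for Psmb8 against 680 for Psmb5. In expected counts Psmb10 had 1477 and 516 beside 646 and 397 for Psmb7. Psmb8 had 1974 and 758 beside 278 and 193 for Psmb5.

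The caspase-like pair did not show that order. Psmb6 had 38.7 and 34.1 TPM and its counterpart Psmb9 had 37.9 and 25.1. The inducible-over-constitutive ratio was 0.981 in replicate 1 and 0.735 in replicate 2. In the second quantification the log2 ratio of Psmb6 over Psmb9 was −0.12 and 0.28, so its sign in replicate 1 depended on the table. Over the 3 pairs, the median log2 ratio of constitutive over inducible was −1.82 ± 0.62 (SD, n = 2).

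**Figure D2:**
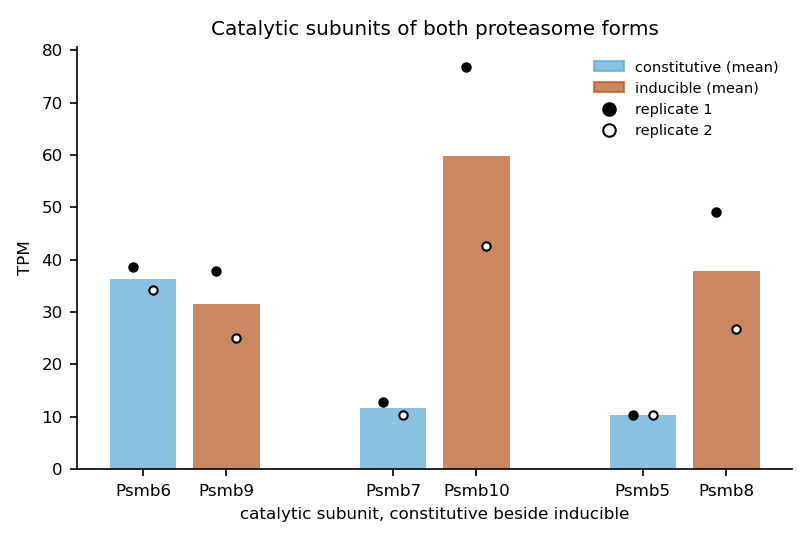
Level in TPM over all annotated transcripts (vertical, linear from 0) of the 3 constitutive catalytic genes (blue) beside their inducible counterparts (brown); bars are means of 2 libraries, filled points replicate 1 and open points replicate 2. Psmb10 and Psmb8 stand above Psmb7 and Psmb5 in both libraries, while Psmb6 and Psmb9 lie close together. On protein-coding transcripts alone, Psmb8 and Psmb10 were the lower genes of their pairs in replicate 2. Psmb5 has no annotated form of another class.

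The spread of the 2 libraries was unequal within the pairs. All 5 inducible and PA28 genes were lower in replicate 2 on counts scaled by TMM, a method that takes most genes as unchanged, with a median log2 ratio of −0.73. Psmb10 (−1.24) and Psmb8 (−1.11) were lowest. Psmb5, Psmb6 and Psmb7 stood at −0.25, −0.44 and −0.43. The size of the inducible excess over all transcripts thus differed between libraries. In TPM, Psme1 went the other way, with 51.9 in replicate 1 and 71.2 in replicate 2, while the other inducible and PA28 genes were lower in replicate 2.

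Much of the inducible excess in TPM lay on forms annotated as non-coding. Retained-intron transcripts held 77.6% and 73.0% of the level of Psmb8 in replicates 1 and 2. In Psmb10 a processed transcript held 60.2% and 52.5%, and retained-intron forms 15.1% and 31.9%. That processed transcript is only 426 bases long and had 387 and 128 counts. The protein-coding form of Psmb10, of 1311 bases, had more reads, with 824 and 202 counts. Protein-coding transcripts made up all of Psmb5 and 81.1% and 74.3% of Psmb7, but 22.4% and 27.03% of Psmb8 and 24.7% and 15.7% of Psmb10. Psmb5 has no annotated form of another class, so its share was fixed by the annotation.

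On protein-coding transcripts alone, a choice made after seeing the data, the order changed. Psmb8 then had 11.0 and 7.23 TPM beside 10.3 in both libraries for Psmb5, and Psmb10 had 19.0 and 6.69 beside 10.4 and 7.74 for Psmb7. Both inducible genes were thus above their counterparts in replicate 1 and below them in replicate 2. Psmb6 had 21.2 and 19.3 TPM and Psmb9 16.4 and 8.0, so the constitutive gene was above in both. The median log2 ratio of constitutive over inducible turned from −1.82 to 0.20, and was 0.16 on protein-coding transcripts in the second quantification. This choice could lower Psmb8 but not Psmb5, which has only protein-coding forms annotated. How far the turn follows from the annotated forms was not tested.

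Genes of the wider pathway were present too. Of 8 listed subunits and assembly factors outside the name rule, 6 matched a symbol (Paaf1 and Psmd3ip1 did not), and all 6 were detected, with a median of 11.9 TPM. Pomp, the chaperone of the beta ring, was highest on average at 21.5 and 11.7 TPM, but Sem1 (15.1) and Adrm1 (13.9) were above it in replicate 2. Fam192a, a binder of Psme3, was lowest at 6.67 and 5.76. Pomp stood above all 7 chaperones that the name rule gave.

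The transcription factor NFE2L1 raises proteasome genes when the proteasome is inhibited. Of 10 genes of the NFE2L1 and NFE2L2 response list, 9 were detected, with a median of 21.2 TPM. Nfe2l1 itself was highest at 61.1 and 64.6 TPM. Maff, a small partner protein, was lowest at 0.710 and 0.720 TPM and not detected.

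All 11 proteasome-associated enzymes and shuttle factors were detected, with a median of 9.41 TPM. Ecpas, which tethers to the proteasome, was highest on average at 26.5 and 37.3 TPM, with Zfand5 just above it in replicate 1 at 26.9. The shuttle Ubqln2 was lowest at 2.00 and 2.62. All 6 ubiquitin and E1 genes were detected, with a median of 36.9 TPM. The E1 gene Uba6 was lowest with 2.92 and 3.74 TPM.

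The replicates were next compared gene by gene, as the log2 ratio of replicate 2 over replicate 1 of TMM-scaled counts. This asks how well the levels above repeat, and is no contrast of conditions. At a mean count of 50 or more, none of 40 members was past 2-fold either way. Of all 11763 genes at that depth, 4.04% were, 1.05% higher and 2.98% lower in replicate 2. The SD of the ratio at that depth was 0.294 over members and 0.448 over protein-coding genes.

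The ratios were not centred on 0. At a mean count of 10 or more, the median over 44 members was −0.20, against 0.0064 over 11754 protein-coding genes. The core particle carried most of that. All 14 alpha and beta genes were below 0, with a median of −0.45 and a range from −0.80 to −0.090. In the regulatory particle 7 of 17 genes were above 0 and 10 below, with a median of −0.15. The lid stood at 0.017 and the 3 alternative caps at 0.083, all 3 above 0.

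At a mean count of at least 50, the lowest ratios were those of Psme2b (1365 and 647 counts, −0.80), Psmb4 (452 and 215, −0.80) and Psma7 (583 and 279, −0.79). The 95% counting interval was −1.03 to −0.56 for Psmb4 and −0.99 to −0.58 for Psma7. The highest were Psmg2 (68 and 73 counts, 0.38), Psme3 (924 and 926, 0.28) and Psmd11 (960 and 923, 0.22). The interval of Psmg2, −0.099 to 0.85, included 0. These intervals cover counting error only, since reads without molecular identifiers are not independent molecules. Psmg1 stood at 0.87 on 29 and 44 counts, with an interval of 0.20 to 1.54.

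Gene length moved with this ratio. The median effective length, the length over which a read can start, was 802 bases for the core particle, 1152 for the regulatory particle and 2873 for the alternative caps. Over protein-coding genes cut into 10 classes of length, the median ratio was −0.24 in the shortest class and 0.10 in the longest. Over the 44 members, the ratio and log length had a Pearson r of 0.310 and a Spearman rho of 0.432, given as a description since these genes share both libraries.

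Against protein-coding genes of the same length class, a scaling added after seeing the data, the core particle stood at −0.23 and the regulatory particle at −0.050. One of the 14 core genes was then above 0, and 7 of 17 regulatory genes. On the plain TMM ratio the 10 macrophage markers were also all below 0, with a median of −0.41, and it was −0.45 within length class. The starting amount differed between the libraries as well, and cannot be told apart from the sample.

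**Figure D3:**
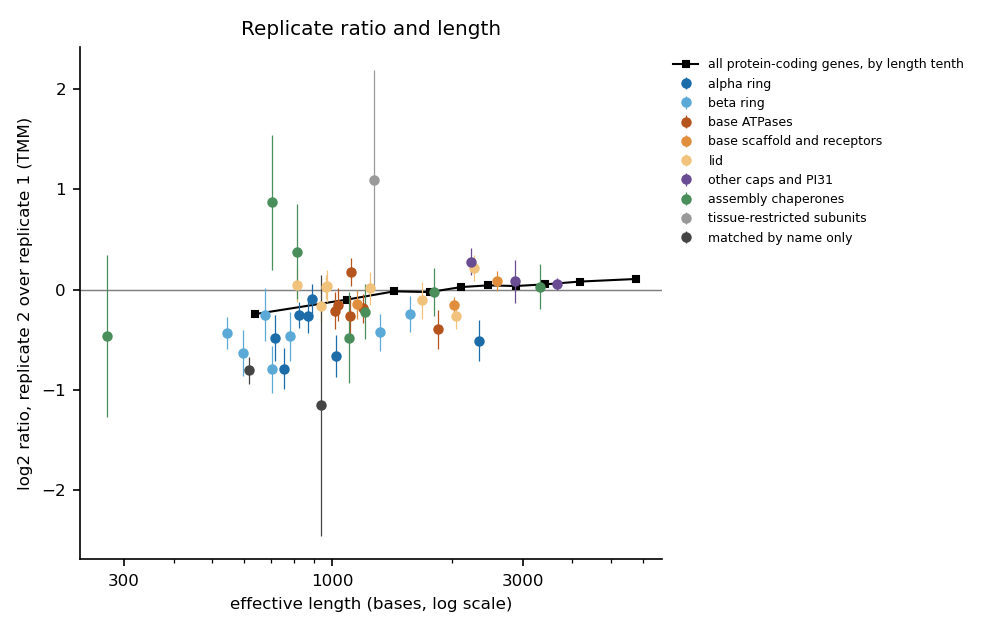
Log2 ratio of replicate 2 over replicate 1 after TMM scaling (vertical) against effective length in bases (horizontal, log scale) for the 44 members at a mean count of 10 or more, coloured by role, with 95% counting intervals as bars; black squares are medians of protein-coding genes in 10 length classes. All 14 alpha and beta ring genes (blue) lie below 0, and all but 1 stayed below 0 against genes of their length class.

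Nuclear RNA holds transcripts that are still being processed, and the tables divide each gene over its annotated transcript forms. A retained-intron transcript is an annotated non-coding form that keeps an intron. The share given here is the percent of the gene's TPM, which divides the reads assigned to a form by its annotated length. It is an estimate of molecules, in which a read on a short form weighs more than one on a long form. Among the 27 members with such a form and at least 1 TPM in both libraries, the median share was 25.2%, against 26.7% over 5978 genes chosen alike. More than 25% was held by 14 of the 27 (51.9%), against 53.3% of those genes, which sets no contrast.

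The 4 highest shares were these. Psmd6, a lid subunit, had 62.9% and 54.6% in replicates 1 and 2, spread over several annotated forms. Psma3 had 67.3% and 42.3%, and its main form of 1027 bases held 53.5% and 30.7%. Psmf1 had 54.3% and 52.4%, and Psmb3 had 44.5% and 50.4%. In Psmd6, Psma3, Psmf1 and the ATPase gene Psmc6 (42.7% against 40.3%) the retained forms outweighed the protein-coding ones on average.

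The second quantification also placed these genes high, with 68.8% and 64.6% for Psmd6 and 62.5% and 45.8% for Psma3. Psma3 overlaps 3110056K07Rik on the opposite strand, with 435 and 252 counts. The strandedness of the libraries is not given in the sources used here, so reads of the 2 genes may be mixed.

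Protein-coding transcripts held a median of 77.9% of the level of the 42 detected members, against 75.6% over 9452 protein-coding genes at that level. The 5 members under 50% were Psma3 at 24.6%, Psmc6 at 40.3%, Psmd9 at 40.6%, Psmd6 at 41.2% and Psmf1 at 41.4%. Of all those genes 20.7% were under 50%. In all, 7 members had only protein-coding transcripts counted, among them Psmb5, Psma5 and Psme2b. All of these but Psma5 have no annotated form of another class, so their share was fixed by the annotation. In the second quantification Psma5 was 75.4% and 64.3% protein-coding. The form with the largest share was protein-coding in 41 of the 44 members with counts, which include those with only protein-coding forms annotated. The same count over all protein-coding genes was not made, so whether this is unusual is not known.

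**Figure D4:**
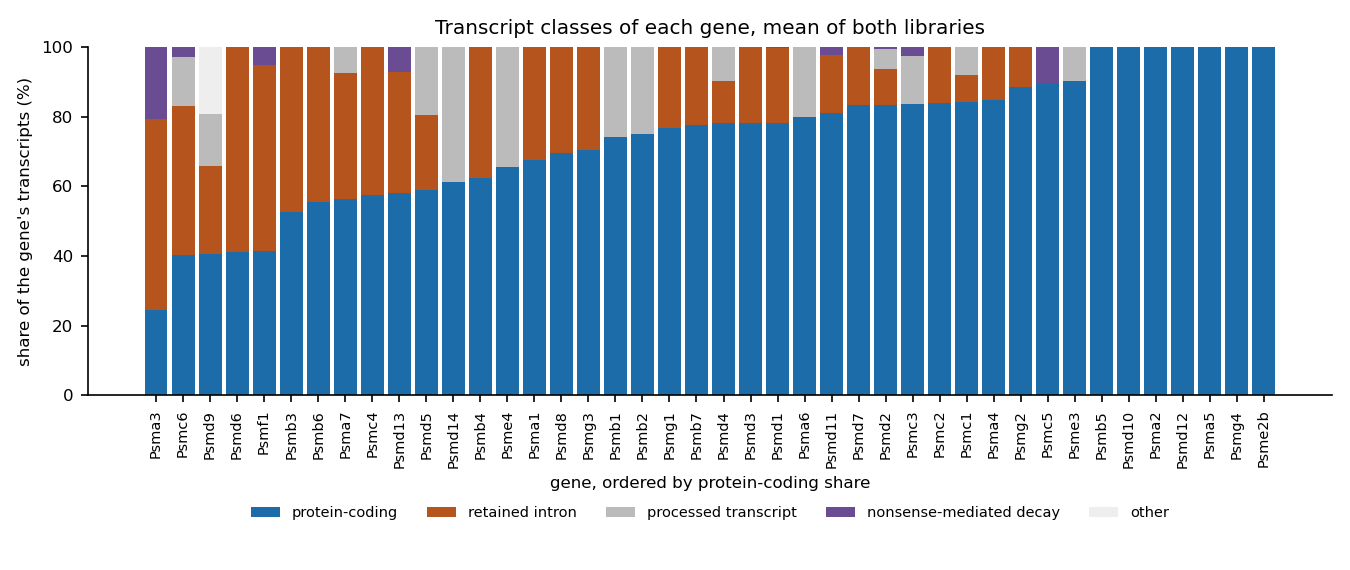
Share of each detected gene's TPM in percent (vertical) by class of annotated transcript, as the mean of 2 libraries, ordered by the protein-coding share. Psma3, Psmc6, Psmd9, Psmd6 and Psmf1 at the left are under 50% protein-coding, and 7 genes at the right are wholly protein-coding. For all of these 7 but Psma5, no form of another class is annotated.

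Both deposited quantifications were compared for each member, as the log2 TPM of the second over the first, centred on the median of protein-coding genes. On the mean of both libraries, none of the 42 detected members was over 2-fold apart, against 4.06% of detected protein-coding genes, and 2 were over 1.5-fold apart. In replicate 2 alone 1 member, Psma2, was over 2-fold apart. The 2 over 1.5-fold were Psma2 (0.64 and 1.13 in replicates 1 and 2) and Psmd14 (0.72 and 0.82). For Psmd14 the second quantification put 73.9% and 75.4% of the level on short processed transcripts, against 38.4% and 39.4% in the first. The median absolute difference was 0.21 over members and 0.25 over detected protein-coding genes.

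**Figure D5:**
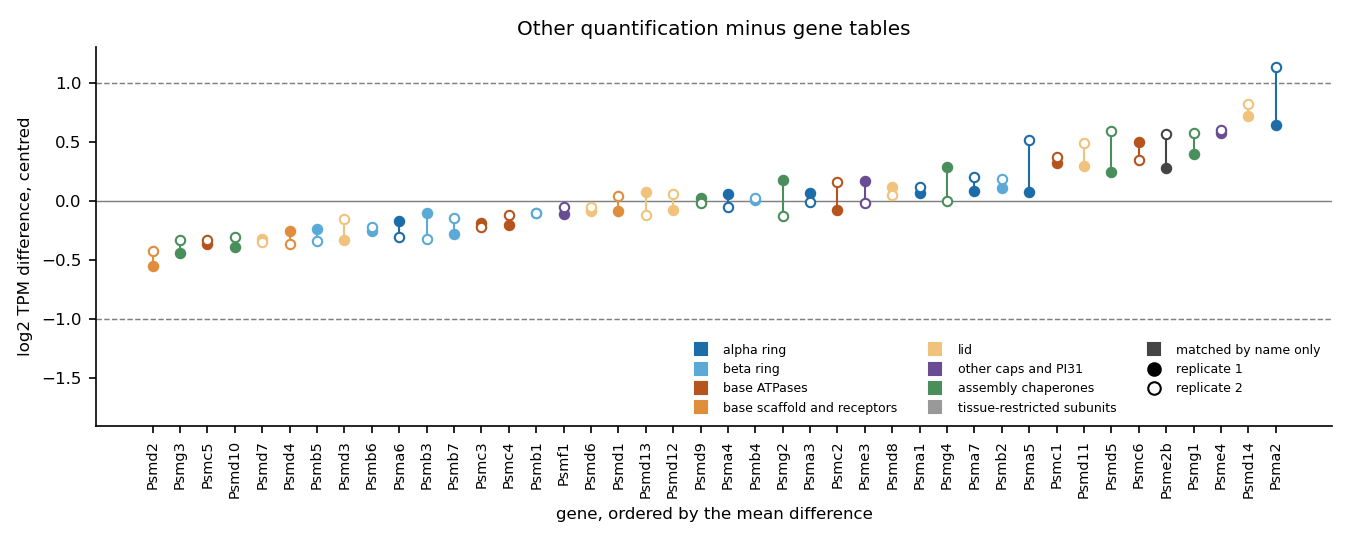
Centred log2 difference in TPM (vertical) of the second quantification over the first, for the 42 detected members in order of the mean difference, with replicate 1 filled and replicate 2 open. Dashed lines mark 2-fold; Psma2 in replicate 2 is the point beyond them, and its mean of 0.89 is within.

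Copies of proteasome genes elsewhere in the genome could take their reads. In all, 9 members shared over 20% of their 31-base windows with another gene, and 12 shared none. After Psme2b, the largest shares were those of Psmb5 (71.7%, of which 59.8% with the processed pseudogene Gm3375) and Psma5 (61.0%, of which 46.3% with the processed pseudogene Gm8394). Few counts were placed on either of these pseudogenes. Gm3375 had 0 and 1.02 counts beside the 278 and 193 of Psmb5, and Gm8394 had 3.62 and 6.03 beside the 543 and 283 of Psma5. There were 20 members that overlapped another annotated gene, 10 of them on the same strand. Shared windows and overlaps were not counted over all genes. Whether these numbers are unusual for protein-coding genes is therefore not known.

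Promoter letters were compared because the subunits of both particles are needed together in one complex. RefSeq promoters (GRCm38.p6, 250 bases before to 50 after the start) were found for 37 of the 45 members. The motifs searched on both strands were CCGGAAG (the site of ETS factors), TGACNNNGC (the element of NFE2L1 and NFE2L2), CCAAT (the NF-Y box), TATAAA and TGACGTCA (the cyclic AMP element). No matches to different motifs overlapped in the members' promoters.

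CCGGAAG was in the promoters of 15 of 37 members (40.5%). It was in 23.6% of detected protein-coding genes, 12.95% of protein-coding genes and 8.86% of all 32851 promoters of the table. The 15 include Psmc3ip, which is matched by name only. Regulatory particle genes held it in 9 of 14, and core particle genes in 1 of 11 (Psma6). This split by particle, also given for CCAAT below, was not planned and was not tested, and it rests on few genes. Windows of 5 genes are shown to let the motif be seen across the base, the lid, a cap and the alpha ring. Each runs along the gene's strand upstream of the RefSeq start, with the motif or its reverse complement in capitals. The genes as quantified can start elsewhere. Those of Psmc1 (from chr12:100110154) and Psma6 (from chr12:55384222) begin before their windows, which thus lie within them. The windows are chr12:100110158-100110196 (plus strand, motif from base −28), chr16:20651610-20651648 (plus, from −26), chr14:14120968-14121006 (minus, from −45), chr11:30771706-30771744 (plus, from −53) and chr12:55398677-55398715 (plus, from −132), in the order listed.
Psmc1: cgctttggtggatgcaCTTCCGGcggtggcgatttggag
Psmd2: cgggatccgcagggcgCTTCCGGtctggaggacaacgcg
Psmd6: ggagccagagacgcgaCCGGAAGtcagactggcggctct
Psme4: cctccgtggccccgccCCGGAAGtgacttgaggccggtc
Psma6: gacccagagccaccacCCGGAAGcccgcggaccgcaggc

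The other motifs were not more frequent than in detected protein-coding genes. TGACNNNGC was in 6 of 37 members (16.2%, against 17.2%), CCAAT in 14 (37.8%, against 42.8%) and TATAAA in 3 (8.11%, against 8.28%). TGACGTCA was in 0 of 37, against 3.90%. CCAAT was in 6 of 11 core genes, 5 of them alpha ring genes, and in 4 of 14 regulatory genes. Psme4 (from base −7) and Psmb6 (from −9) held TGACNNNGC closest to the start, but windows around these run past the start and are not shown. Psmb5 and Psmd9 held it next, at chr14:54618018-54618058 (minus strand, from base −47) and chr5:123228143-123228183 (plus strand, from −31). They are shown as examples from a core subunit and an assembly chaperone, with the motif in capitals. The Psmd9 window lies within the gene as quantified, which starts at chr5:123169413.
Psmb5: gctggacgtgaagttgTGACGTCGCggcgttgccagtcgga
Psmd9: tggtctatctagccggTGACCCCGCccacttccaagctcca
A match is a string of letters in a window, and no binding was measured in these libraries.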

How the data were processed

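Total RNA of the nuclear fraction was measured in 2 libraries of 1 group. Per the deposited file descriptions, gene tables hold an expected count and a TPM, and transcript tables the percent of a gene's TPM per transcript, derived from a transcriptome alignment (mm10, GENCODE M21). The authors deposited a further table per library, made directly from reads and an index, with an estimated count and TPM. The aligner, quantifiers and strandedness were not given in the sources used here. Counts on 26345 entries naming no gene (1.06% and 0.245%) were left out.

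Ratios used rounded expected counts plus 0.5 with TMM factors (edgeR 4.0.16, R 4.3.3), with DESeq2 1.42.0 size factors as an alternative, and were checked on simulated counts. Transcript shares and shared 31-base windows were counted with Python 3.11.15. With 1 group no test was run. Named genes were the highest and lowest of each role, catalytic pairs, undetected members, the 3 highest and 3 lowest ratios, the 4 highest retained-intron shares, and members whose quantifications differed; others were named after their values were seen. The members and lists were chosen with earlier results of these data known. Alternatives included other thresholds, scalings, tables and leaving out each replicate. Some genes of the lists are not reported here by name.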

Additional observations from a re-analysis of the deposited data

How the results depend on the processing

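The number of detected members stayed between 40 and 42 under every planned setting. TPM is a share of a total: the median level of the members was 13.4, 7.36 in the other quantification and 64.0 when rescaled over protein-coding genes. By subcomplex these pairs were 10.1 and 78.2 (alpha ring), 5.69 and 55.6 (beta ring), 8.23 and 76.6 (ATPases), 10.8 and 91.0 (scaffold and receptors), 10.5 and 82.5 (lid), 7.79 and 60.1 (other caps) and 1.71 and 13.0 (chaperones). Leaving out 1 replicate gave 13.5 to 13.7 for all members and 2.81 to 2.93 for chaperones, and detected members alone had 13.8. On protein-coding transcripts alone, added after seeing the data, the median log2 ratio of constitutive over inducible catalytic genes turned from −1.82 to 0.20, and to 0.16 in the other quantification. Psmb5 has only protein-coding forms annotated, so this choice could not lower it. The median replicate ratio turned to 0.050 as a raw TPM ratio, where all protein-coding genes stood at 0.24, and was −0.19 relative to them. Against genes of the same length class, added after seeing the data, the core particle was at −0.23. Past 2-fold were 1 member in the other quantification (Psmg1) and 2 with no filter on counts (Psma8, Psmc3ip). The retained-intron share was 32.3% in the other quantification, 30.6% at 5 TPM and 23.5% to 23.8% without 1 replicate. The protein-coding share was 67.8% in the other quantification. The median difference of the quantifications was 0.11 in counts and 0.19 to 0.21 without 1 replicate. The cause of these changes was not tested.

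No paired analysis was possible because there is only 1 group. With few reads, Psmg1, Psmg4, Psma8 and Psmc3ip have ratios too imprecise to read.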
